A study of Mus musculus with 186 samples.

Results

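The genes described here are 31 genes of the vascular endothelium, the single layer of cells that lines blood vessels. They were chosen by name and not by a measured value, by matching the Ensembl identifiers of a mouse RNA-seq count table to gene symbols. All 31 were found among the 22095 gene identifiers of the table, all 31 are annotated as protein coding, and all 31 passed the filter on low counts in both tissues. The study is a model of systemic scleroderma in which female C57BL/6 mice about 12 weeks old were injected under the skin between the shoulder blades with bleomycin, a DNA-damaging drug that leads to fibrosis, or with PBS, the control solution. Bleomycin was given at 10 mg/kg/day, 5 times a week for 2 weeks from day 0. Lung (superior lobe) and skin (punch biopsy) were taken on day 7, 14, 21, 28 or 42. Mice killed on days 7 and 14 had no oral dosing. The later groups had oral dosing from day 12 on: PBS mice had the dosing vehicle, and bleomycin mice had either vehicle or, on days 21 and 28, the ALK5 inhibitor SB525334 at 30 mpk, which blocks a TGF-beta receptor kinase. The last oral dose was on day 27, so the day 42 groups were taken after dosing had ended. Each tissue had 12 groups: PBS groups of 8, 8, 8, 7 and 8 libraries and bleomycin groups without inhibitor of 7, 8, 7, 7 and 8 on the 5 days in order, and inhibitor groups of 9 and 8 on days 21 and 28. Every mouse in every group had injections, so no group shows undisturbed skin. The labels do not match lung and skin libraries of 1 mouse.

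Endothelial cells hold the vessel wall together through junction proteins, receive growth signals through the VEGF and angiopoietin receptors, and keep their identity through ETS- and SOX-family transcription factors. In the lung most of them are capillary cells, of which aerocytes face the air space and general capillary cells can renew the capillary bed. Loss of small vessels and thickening of their walls are long-known features of human scleroderma. By role, the genes fall into junction and adhesion proteins (Cdh5, Pecam1, Cldn5, Esam, Icam2, Emcn and the phosphatase gene Ptprb), receptors for growth and guidance factors (Kdr, Flt1, Tek, Tie1, Eng and Robo4), and receptors or receptor partners for peptides and lipids (Aplnr, Ednrb, S1pr1 and Ramp2). The others code for secreted proteins (Apln, Esm1, Egfl7, Vwf and Mmrn2), enzymes and surface proteins (Car4, Gpihbp1, Plvap, Nos3, Cd93 and Clec14a), and transcription factors (Sox17, Sox18 and Erg).

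The promoters of 5 genes are shown. Of these, Ednrb fell on all 5 days in the lung, Esm1 fell in the lung and rose in the skin, and Apln rose on all 5 days in the skin. Flt1 and Tie1 were picked as receptors with matches to the ETS motif, not for their changes. Each run holds 300 bases, from 250 before to 50 after a transcription start, from RefSeq on GRCm38.p6. The ETS motif searched was AGGAAG on either strand (CTTCCT on the other), and its matches are in capitals. The windows are Ednrb chr14:103843652-103843951 (minus strand), Esm1 chr13:113209409-113209708 (plus strand), Apln chrX:48034804-48035103 (minus strand), Flt1 chr5:147725962-147726261 (minus strand) and Tie1 chr4:118489800-118490099 (minus strand).
Ednrb: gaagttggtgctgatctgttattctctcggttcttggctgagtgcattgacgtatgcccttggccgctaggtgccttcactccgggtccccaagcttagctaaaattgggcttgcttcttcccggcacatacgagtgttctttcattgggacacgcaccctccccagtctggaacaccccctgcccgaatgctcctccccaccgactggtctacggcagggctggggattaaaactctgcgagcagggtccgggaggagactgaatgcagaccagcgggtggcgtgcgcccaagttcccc
Esm1: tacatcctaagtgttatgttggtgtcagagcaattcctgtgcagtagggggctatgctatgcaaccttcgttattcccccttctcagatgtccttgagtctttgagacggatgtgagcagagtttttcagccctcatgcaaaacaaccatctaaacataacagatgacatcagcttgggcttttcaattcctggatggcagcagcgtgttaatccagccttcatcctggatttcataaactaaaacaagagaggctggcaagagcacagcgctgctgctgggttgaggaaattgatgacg
Apln: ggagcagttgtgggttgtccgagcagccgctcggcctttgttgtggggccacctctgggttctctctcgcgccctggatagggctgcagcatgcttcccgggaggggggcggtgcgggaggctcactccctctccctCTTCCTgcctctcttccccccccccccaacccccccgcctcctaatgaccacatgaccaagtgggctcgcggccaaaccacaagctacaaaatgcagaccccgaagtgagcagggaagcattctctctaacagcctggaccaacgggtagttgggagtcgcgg
Flt1: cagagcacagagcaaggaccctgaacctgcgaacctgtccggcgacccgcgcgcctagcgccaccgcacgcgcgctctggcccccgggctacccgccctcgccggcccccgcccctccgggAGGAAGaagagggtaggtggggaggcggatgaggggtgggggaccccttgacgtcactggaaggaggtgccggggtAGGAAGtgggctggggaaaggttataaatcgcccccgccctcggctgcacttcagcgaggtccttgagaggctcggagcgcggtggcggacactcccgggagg
Tie1: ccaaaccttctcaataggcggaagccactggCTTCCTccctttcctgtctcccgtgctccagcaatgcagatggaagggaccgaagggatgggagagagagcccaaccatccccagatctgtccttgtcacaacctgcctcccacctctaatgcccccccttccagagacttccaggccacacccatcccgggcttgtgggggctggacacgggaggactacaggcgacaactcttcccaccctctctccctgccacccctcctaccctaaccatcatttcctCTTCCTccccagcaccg
The windows of Flt1 and Tie1 hold 2 matches each, that of Apln holds 1, and those of Ednrb and Esm1 hold 0. Among windows of growth and guidance receptors not shown, that of Eng holds 2, that of Robo4 1 and those of Kdr and Tek 0. Windows were found for 15 of the 31 genes, 19 windows in all, and 9 of these 19 had an ETS match, while 35.4% of 32851 RefSeq windows of the same length had one. A SOX motif, ACAAT, was in 5 of the 19 (31.0% of all windows), and a GATA motif, AGATAA, in 2 (11.2% of all windows). None of the 3 motifs contains another, and a match describes the letters only.

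Libraries held 4.79 to 38.3 M counts (M, mega counts) in lung, with a median of 19.8 M, and 14.7 to 43.1 M in skin, with a median of 19.7 M. Sftpc, the surfactant gene that marks lung tissue, had a median of 8134 CPM (counts scaled to a library of 1 M) in lung. Of the 93 lung libraries, 18 stood apart in composition. In 10 of these, all of day 28 and plate 1, ribosomal protein genes took over 4% of counts, against 1.53 to 3.16% in the other lung libraries, and 8 others had a few dominant genes or transcripts of hair, liver or muscle. Of the 93 skin libraries, 6 had Sftpc above 25 CPM, against 1.31 to 22.2 in the other skin libraries: 2 of bleomycin day 7, 1 of PBS day 21, 1 of bleomycin day 21 and 2 of bleomycin with SB525334 day 21. Counts of called genes are given with and without these libraries, and so are the single genes whose call ended without them. The shares of all genes called in fits without these libraries, or in other alternative fits, are not given here. Counts from those fits are therefore not set against all genes.

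In mice injected with PBS, all 31 genes had a higher median level in lung than in skin. The ratio of the lung to the skin level ran from 2.73 for Ednrb to 78.2 for Car4, with a median of 13.3. Per kilobase of exon, the lung level was highest for Cldn5, a tight-junction protein, at 220 CPM per kb, and lowest for Nos3, the endothelial nitric oxide synthase, at 5.91 CPM per kb. The skin level per kilobase was highest for Ednrb at 12.1 CPM per kb and lowest for Esm1 at 0.298 CPM per kb. Ednrb is also made outside vessels, in skin by cells of the pigment lineage. Cdh5, the VE-cadherin of endothelial junctions, lay at 309 to 508 CPM (median 438) in the 17 PBS lungs of plate 1 and at 461 to 689 (median 605) in the 22 of plate 2, so levels below, which are not corrected for plate, include this spread. The tests have a plate term. In a bulk sample, fewer endothelial cells and less RNA per cell cannot be told apart.

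Bleomycin lowered most of the endothelial genes in the lung, and the fall was broadest on day 14. On that day 28 of the 31 genes fell and 1 rose, while 25.4% of all genes tested fell and 21% rose. The median log2 fold change of the 31 genes was -0.59, against -0.02 over all genes tested. The falls numbered 10 on day 7 (17.8% of all genes), 14 on day 21 (19.4%), 23 on day 28 (18.4%) and 16 on day 42 (6.77%). Rises numbered 1 on day 7 (13.9% of all genes), 2 on day 21 (15.9%), 0 on day 28 (19.7%) and 0 on day 42 (12.6%). Counting either direction, 31.7%, 46.4%, 35.3%, 38.1% and 19.4% of all genes were called on the 5 days. The medians of the 31 genes on days 7, 21, 28 and 42 were -0.29, -0.26, -0.52 and -0.36. Kdr, Flt1, Ednrb, Esm1 and Ptprb fell on all 5 days, and 28 of the 31 genes fell on at least 1. The day 28 calls of Flt1, Esm1 and Ptprb ended without the libraries that stood apart. The shares of all genes that fell on all 5 days or on at least 1 were not computed. The daily shares over all genes also apply to the lung counts by role and by marker list below. Fold changes are log2 values from a fit over all genes, given with their standard error and a p adjusted over all genes tested.

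**Figure D1:**
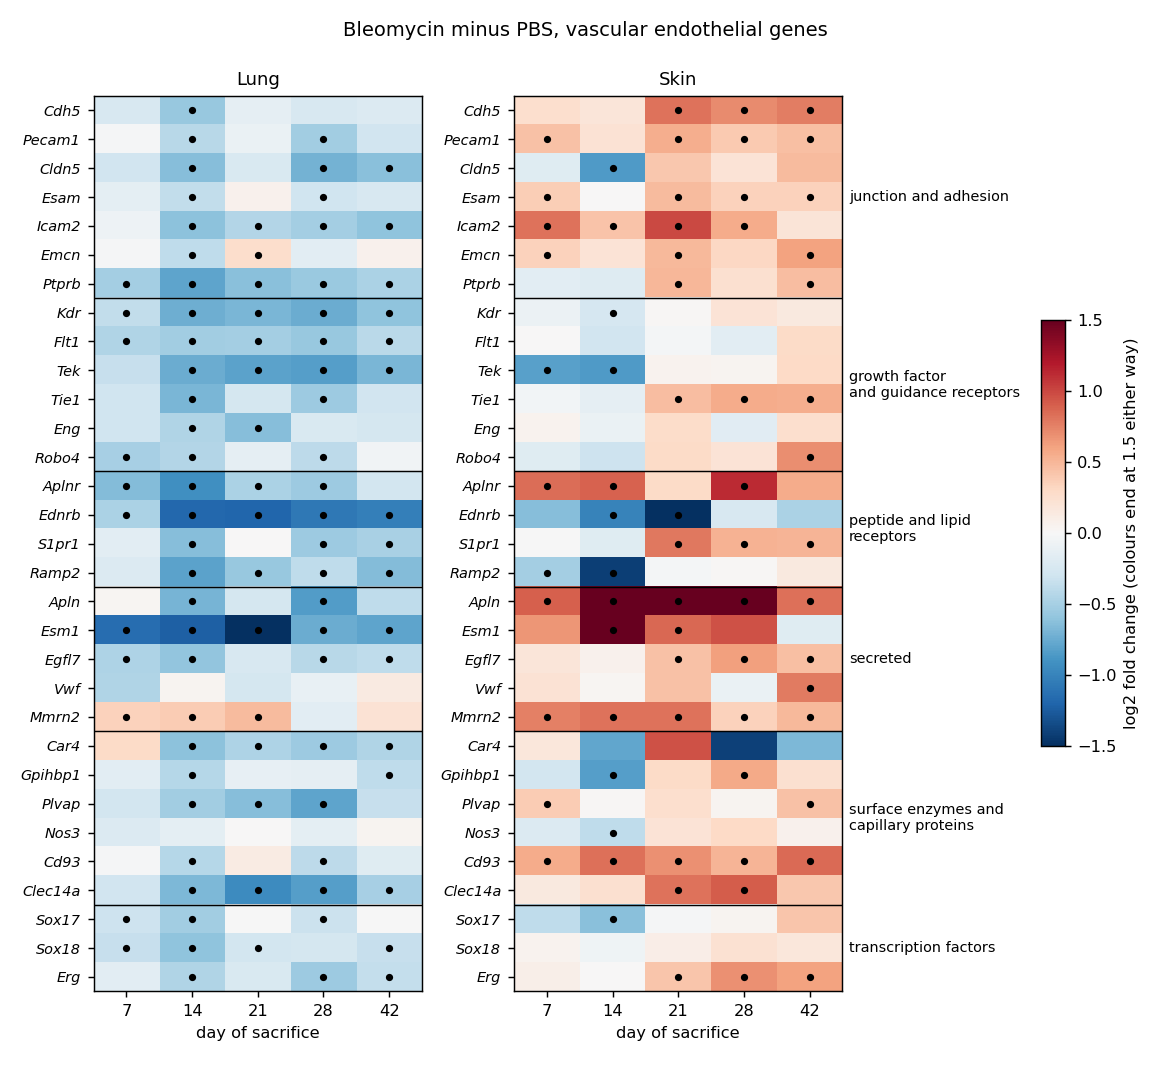
Log2 fold change of bleomycin against PBS (colour, blue lower and red higher, ending at 1.5 either way) for each of the 31 genes (rows, by role) on 5 days (columns) in lung (left) and skin (right); a dot marks an adjusted p below 0.05. Lung columns are mostly below 0, with 28 falls on day 14, and skin columns are mostly above 0 from day 21 on.

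Per library, the median of the 31 genes was set against the mean of the PBS libraries of the same day, on the log2(CPM + 0.5) scale. The bleomycin lungs ran from -0.38 to -0.13 (median -0.31) on day 7, from -0.73 to -0.48 (median -0.57) on day 14 and from -0.63 to -0.06 (median -0.28) on day 21. On day 28 they ran from -0.83 to 0.09 (median -0.70) and on day 42 from -0.86 to -0.19 (median -0.32). The PBS lungs of all days ran from -0.51 to 0.30. So every bleomycin lung of days 7, 14, 21 and 42 was below the PBS mean, and on day 28 at least 1 was above it. The summed level of the 31 genes was 8420 to 10520 CPM (median 10124) in PBS lungs and 5942 to 7560 CPM (median 6662) in bleomycin lungs on day 14, and 5599 to 9694 CPM (median 7983) and 4250 to 8569 CPM (median 5215) on day 28, the day on which the PBS lungs spread most widely.

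**Figure D2:**
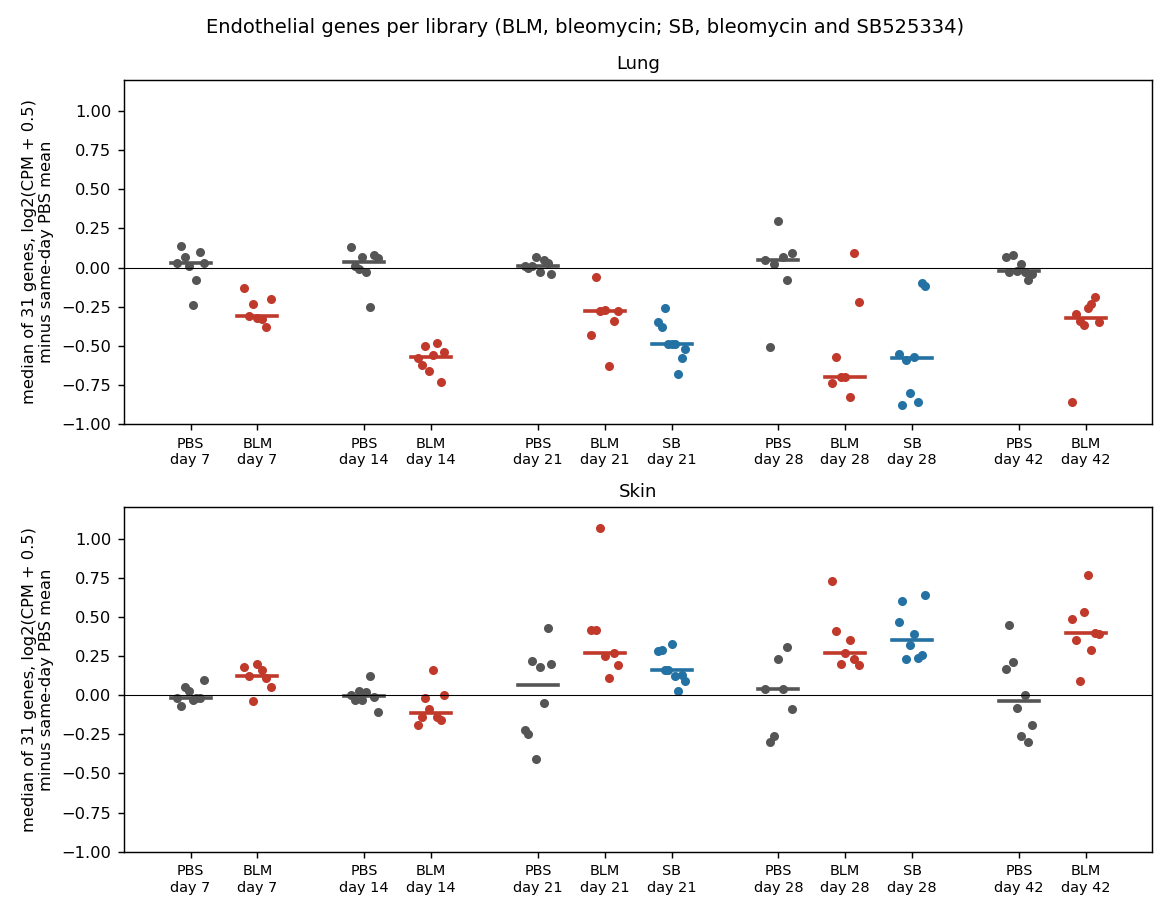
Median of the 31 genes in each library minus the PBS mean of its day and tissue, log2(CPM + 0.5) scale, by day and treatment, with lung above and skin below (1 point a library, bars at group medians). Bleomycin lungs of day 14 lie between -0.73 and -0.48, and bleomycin skins of days 21 to 42 lie above 0.

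The day 28 lung result depends on the libraries that stood apart. Without the 18 lung libraries, 14 genes fell on day 28 with a median of -0.31, and the falls of Esam, Ptprb, Sox17, Cd93, Flt1, Robo4, Erg, Esm1, Aplnr and S1pr1 were not called (log2 fold changes from -0.35 to -0.06). Replicates 3, 6 and 7 were the vehicle-dosed bleomycin lungs of day 28 left in that fit. The median on day 28 was -0.68 within plate 1 (5 against 5 libraries) and -0.09 within plate 2 (2 against 2), and 19 of the 23 called genes moved the same way in the 2 plates. On the other 4 days every called gene did so, but on day 14 plate 1 held 1 bleomycin lung and 1 PBS lung. Without the 18 libraries the falls numbered 15, 28, 17 and 20 on days 7, 14, 21 and 42, with medians of -0.28, -0.58, -0.26 and -0.31. With no share of all genes for that fit, a higher count is not read as a gain.

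Among the junction and adhesion genes, 7 of 7 fell in the lung on day 14, 1 of 7 on day 7, 2 on day 21, 5 on day 28 and 3 on day 42. Cdh5 was at 407 to 663 CPM (median 595) in PBS lungs and 251 to 455 (median 412) in bleomycin lungs on day 14, groups that overlapped. Its log2 fold change was -0.57 ± 0.10 (adjusted p = 7.97e-07), and on the other days it lay between -0.24 and -0.13 and was not called. Pecam1, the adhesion molecule CD31, was at 675 to 905 CPM (median 862) with PBS and 547 to 774 (median 585) with bleomycin on day 14, again with overlap, for a change of -0.42 ± 0.11 (adjusted p = 0.000952). Both pan-endothelial genes thus fell on day 14, and Pecam1 was also called on day 28, at -0.52 ± 0.12 (adjusted p = 0.000481). Cldn5 was at 311 to 423 CPM (median 330) with PBS and 159 to 276 (median 227) with bleomycin on day 42, and every bleomycin lung was below every PBS lung. Its change was -0.63 ± 0.12 (adjusted p = 1.98e-05) on day 42 and -0.71 ± 0.13 (adjusted p = 1.19e-05) on day 28. Icam2, which binds leukocyte integrins, was at 111 to 150 CPM (median 131) with PBS and 61 to 96.5 (median 87.3) with bleomycin on day 42, also without overlap, and changed by -0.60 ± 0.11 (adjusted p = 1.02e-05).

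Ptprb, the endothelial phosphatase VE-PTP that restrains Tek signaling, was at 1823 to 2105 CPM (median 2048) in PBS lungs and 1018 to 1477 (median 1096) in bleomycin lungs on day 14, without overlap. It changed by -0.79 ± 0.13 (adjusted p = 5.44e-07) on that day and by -0.51 ± 0.14 (adjusted p = 0.00208) on day 7, where the groups did not overlap either. Esam, an immunoglobulin-family protein of endothelial junctions, was at 157 to 203 CPM (median 188) with PBS and 132 to 156 (median 143) with bleomycin on day 14, without overlap, for a change of -0.37 ± 0.10 (adjusted p = 0.00114). Emcn, the sialomucin endomucin of capillaries and veins, moved both ways. On day 14 it was at 47.4 to 75.2 CPM (median 63.6) with PBS and 39.2 to 66.9 (median 43.6) with bleomycin and fell, at -0.38 ± 0.10 (adjusted p = 0.00184). On day 21 it was at 47.8 to 62.5 CPM (median 60.7) with PBS and 64.9 to 76.3 (median 69.2) with bleomycin, with every bleomycin lung higher, at 0.26 ± 0.11 (adjusted p = 0.045).

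Of the 6 receptors for growth and guidance factors, 3, 6, 4, 5 and 3 fell in the lung on the 5 days in order, and 0 rose. Kdr, the main VEGF receptor, was at 452 to 651 CPM (median 569) in PBS lungs and 297 to 408 (median 332) in bleomycin lungs on day 14, without overlap, for a change of -0.73 ± 0.13 (adjusted p = 2.06e-06). Flt1, the VEGF receptor that also acts as a decoy and whose window holds 2 ETS matches, was at 278 to 355 CPM (median 334) and 189 to 262 (median 227) on day 21, without overlap, at -0.51 ± 0.14 (adjusted p = 0.00314). Both fell on every day, but the day 28 call of Flt1 ended without the libraries that stood apart (-0.17, adjusted p = 0.311). Tek, the angiopoietin receptor Tie2, was at 492 to 551 CPM (median 519) with PBS and 230 to 349 (median 304) with bleomycin on day 21, without overlap. Its change was -0.80 ± 0.14 (adjusted p = 5.39e-06) on day 21, -0.74 on day 14, -0.83 on day 28 and -0.69 on day 42, all called. Its partner receptor Tie1 was at 202 to 251 CPM (median 239) and 126 to 164 (median 150) on day 14, without overlap, at -0.68 ± 0.12 (adjusted p = 2.29e-06). Eng, the TGF-beta and BMP co-receptor endoglin, was at 201 to 288 CPM (median 247) and 115 to 193 (median 159) on day 21, without overlap, at -0.64 ± 0.12 (adjusted p = 1.5e-05). Robo4, which stabilizes the vessel wall, was at 53 to 80.5 CPM (median 61) and 34.8 to 58.4 (median 42.1) on day 7, where the groups overlapped, at -0.50 ± 0.14 (adjusted p = 0.00473).

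All 4 receptors or partners for peptides and lipids fell in the lung on days 14 and 28. Ednrb, the endothelin receptor B that aerocytes carry, fell most steadily. It was at 137 to 184 CPM (median 149) in PBS lungs and 49.3 to 80 (median 73.4) in bleomycin lungs on day 14, and still at 118 to 162 CPM (median 145) and 53.9 to 86.3 (median 73) on day 42. The groups did not overlap on days 7, 14, 21 and 42. Its change was -1.18 ± 0.17 (adjusted p = 3.97e-08) on day 14, -1.19 ± 0.18 (adjusted p = 1.95e-07) on day 21, -1.07 ± 0.19 (adjusted p = 1.38e-05) on day 28 and -1.03 ± 0.17 (adjusted p = 3.77e-06) on day 42. Without the libraries that stood apart, the day 28 value was -0.66 (adjusted p = 0.0195). In that fit Aplnr, at -0.26 (adjusted p = 0.456), and S1pr1, at -0.32 (adjusted p = 0.0608), were not called on day 28. Aplnr, the apelin receptor of general capillary cells, was at 38.5 to 59.6 CPM (median 51.9) and 9.3 to 46 (median 27.1) on day 14, at -0.92 ± 0.18 (adjusted p = 2.84e-05). S1pr1, the receptor through which sphingosine-1-phosphate tightens the vessel wall, was at 343 to 505 CPM (median 422) and 220 to 316 (median 276) on day 14, without overlap, at -0.64 ± 0.11 (adjusted p = 1.12e-06). Ramp2, which forms the adrenomedullin receptor with Calcrl, was at 171 to 276 CPM (median 243) and 110 to 177 (median 133) on day 14, with overlap, at -0.80 ± 0.13 (adjusted p = 5.31e-07). On day 42 its groups no longer overlapped, at -0.65 ± 0.13 (adjusted p = 0.000125).

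The secreted proteins did not move as 1 group in the lung. Esm1, the endothelial proteoglycan endocan, was at 10.2 to 20.6 CPM (median 12.9) in PBS lungs and 2.61 to 5.36 (median 4.28) in bleomycin lungs on day 21, without overlap. Its change was -1.14 ± 0.25 (adjusted p = 0.000182) on day 7, -1.22 on day 14, -1.70 ± 0.25 (adjusted p = 9.7e-08) on day 21, -0.74 on day 28 and -0.79 on day 42, all called. Without the libraries that stood apart the day 28 call ended, at -0.35 (adjusted p = 0.394). Apln, the peptide ligand of Aplnr, was at 23.3 to 68.9 CPM (median 49.5) and 17.4 to 40.9 (median 31.4) on day 14, at -0.70 ± 0.19 (adjusted p = 0.00159), and it also fell on day 28, at -0.84 ± 0.21 (adjusted p = 0.0012). Egfl7, a matrix-bound protein of endothelial cells, was at 368 to 585 CPM (median 492) and 318 to 418 (median 347) on day 7, at -0.46 ± 0.10 (adjusted p = 0.000296). Mmrn2, a matrix glycoprotein that binds Cd93 and Clec14a, rose on days 7, 14 and 21. On day 21 it was at 48.5 to 56.9 CPM (median 52.1) with PBS and 57.8 to 82.4 (median 73.6) with bleomycin, without overlap, at 0.48 ± 0.13 (adjusted p = 0.00207), after 0.35 ± 0.13 (adjusted p = 0.0279) on day 7 and 0.38 ± 0.12 (adjusted p = 0.00874) on day 14. Vwf, the von Willebrand factor gene, lay between -0.45 and 0.13 on the 5 days and was called on none.

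The enzymes and surface proteins fell in 5 of 6 genes on day 14, with Nos3, at -0.15 ± 0.13 (adjusted p = 0.324), the gene that was not called. Car4, the carbonic anhydrase on the aerocyte surface, was at 67.6 to 106 CPM (median 95.5) in PBS lungs and 38.9 to 91.9 (median 53.5) in bleomycin lungs, at -0.62 ± 0.13 (adjusted p = 2.76e-05), and fell on each later day. Gpihbp1, which carries lipoprotein lipase to the capillary lumen, was at 79.1 to 118 CPM (median 100) and 61.7 to 89 (median 74.4), at -0.43 ± 0.12 (adjusted p = 0.00296). Plvap, which forms the diaphragms of fenestrae and caveolae, was at 142 to 207 CPM (median 170) and 63.3 to 151 (median 93.4) on day 28, at -0.79 ± 0.14 (adjusted p = 1.94e-05), and also fell on days 14 and 21. Clec14a, a lectin-like receptor, was at 419 to 554 CPM (median 487) and 181 to 331 (median 250) on day 21, without overlap, at -0.94 ± 0.17 (adjusted p = 7.75e-06). Cd93, a related surface receptor, was at 718 to 1129 CPM (median 945) and 570 to 787 (median 706) on day 14, with overlap, at -0.43 ± 0.14 (adjusted p = 0.00906). The transcription factors Sox17, Sox18 and Erg all fell on day 14, at -0.52 ± 0.12 (adjusted p = 0.000139), -0.60 ± 0.11 (adjusted p = 2.22e-06) and -0.45 ± 0.13 (adjusted p = 0.0029). Erg, an ETS-family factor that holds endothelial identity, was at 75.8 to 102 CPM (median 89.9) with PBS and 57.5 to 80.5 (median 64.4) with bleomycin, and the groups overlapped. Sox18 was at 27.2 to 48 CPM (median 30.7) and 16 to 34.8 (median 20.6).

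**Figure D3:**
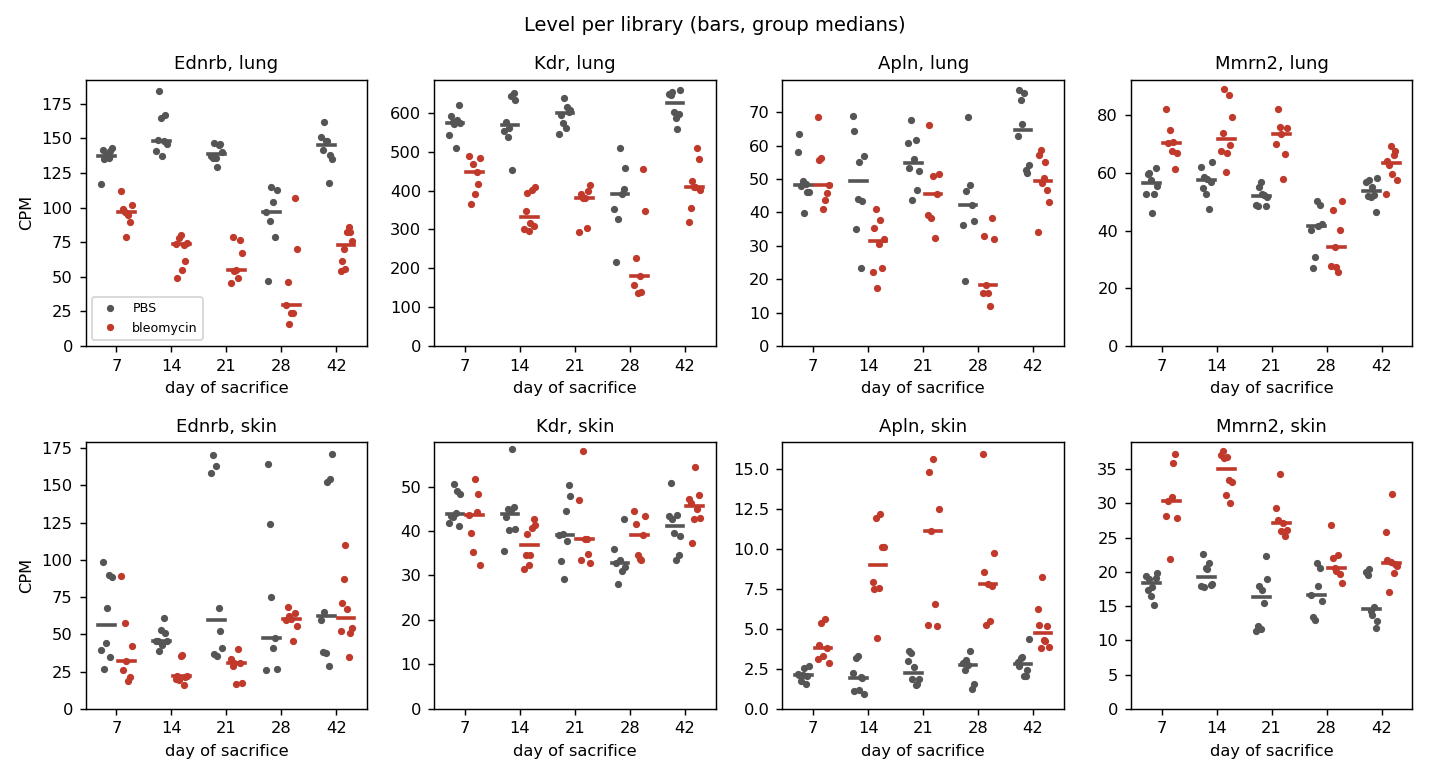
Level in CPM (linear axes from 0) of Ednrb, Kdr, Apln and Mmrn2 in each PBS and bleomycin library without SB525334, by day, with lung above and skin below (bars at group medians). Ednrb in bleomycin lungs of day 14 lies between 49.3 and 80.0 CPM, below all PBS lungs of that day, and Apln in bleomycin skins of day 14 lies above all PBS skins of that day.

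The skin moved differently: falls and rises were mixed up to day 14, and rises prevailed from day 21 on. On day 7, 9 of the 31 genes rose and 2 fell, while 25.5% of all genes tested rose and 20.7% fell. On day 14, 6 rose (31.5% of all genes) and 8 fell (28.1%). On day 21, 15 rose (20.2%) and 1 fell (21%), on day 28, 14 rose (12.7%) and 0 fell (11.6%), and on day 42, 15 rose (5.28%) and 0 fell (4.96%). Counting either direction, 46.2%, 59.6%, 41.2%, 24.3% and 10.2% of all genes were called. The medians of the 31 genes were 0.09, -0.06, 0.44, 0.31 and 0.44 on the 5 days. Apln, Mmrn2 and Cd93 rose on all 5 days in this fit, 10 genes rose on each of days 21, 28 and 42, and 18 genes rose on at least 1 day in skin and fell on at least 1 in lung. For these counts over several days the shares of all genes were not computed. The daily shares over all genes also apply to the skin counts by role and by marker list below.

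Per library, the median of the 31 genes in bleomycin skins ran from -0.04 to 0.20 (median 0.12) on day 7, from -0.19 to 0.16 (median -0.12) on day 14 and from 0.11 to 1.07 (median 0.27) on day 21. It ran from 0.19 to 0.73 (median 0.27) on day 28 and from 0.09 to 0.77 (median 0.40) on day 42, so every bleomycin skin of the last 3 days was above the PBS mean. PBS skins of all days ran from -0.41 to 0.45, so the groups overlapped. Without the 6 skin libraries with lung transcripts, 7, 6, 14, 14 and 16 genes rose and 3, 9, 1, 1 and 0 fell on the 5 days, with medians of 0.01, -0.09, 0.29, 0.28 and 0.42. The shares of all genes in that fit are not given here. The calls of Cd93 on day 7 (0.43, adjusted p = 0.0648), Emcn on day 7 (0.33, adjusted p = 0.0927) and Esm1 on day 21 (0.81, adjusted p = 0.0728) ended without these libraries. The day 21 median was 0.79 within plate 1 (3 against 3 libraries) and 0.14 within plate 2 (4 against 5).

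Fibroblast transcripts rose along with the endothelial genes in late skin, and muscle transcripts did so on day 21. Hair transcripts differed widely between PBS skins. On days 21, 28 and 42 the PBS skins richest in them had the lowest medians of the endothelial genes. On day 21 replicates 1, 2 and 4 (7976 to 9882 CPM) stood at -0.41 to -0.22, the others at -0.05 to 0.43. On day 28 replicates 2 and 3 (7340 and 2859 CPM) stood at -0.30 and -0.26, the others at -0.09 to 0.31. On day 42 replicates 5, 7 and 8 (4809 to 8622 CPM) stood at -0.30 to -0.19, the others at -0.08 to 0.45. The PBS means include these skins. Hair and muscle transcripts were entered as terms in a fit given below, and fibroblast transcripts were not. What part each had in the late rise was not tested. On day 21, 6 of 7 skeletal muscle markers rose, and their summed level was 6.09 to 2394 CPM (median 838) with PBS and 2957 to 10783 CPM (median 4680) with bleomycin, without overlap. Their sum was 5.07 to 5939 CPM (median 1354) and 1336 to 4354 CPM (median 3125) on day 28 and 267 to 4035 CPM (median 1700) and 374 to 8775 CPM (median 3419) on day 42, with overlap and 0 of 7 markers called on both days. Of 6 fibroblast markers 3, 4 and 3 rose on days 21, 28 and 42 and 0 fell. Their summed level was 3739 to 10951 CPM (median 6581) with PBS and 14567 to 17416 CPM (median 16384) with bleomycin on day 28, without overlap, and 2948 to 8802 CPM (median 5855) and 6317 to 15263 CPM (median 11441) on day 42. With terms for hair and muscle transcripts in the fit, 13, 12 and 18 endothelial genes rose and 1, 0 and 0 fell on days 21, 28 and 42, and the median was 0.30 on day 21 and 0.31 on day 28. In that fit the calls of Ptprb (0.30, adjusted p = 0.0605) and Emcn (0.35, adjusted p = 0.0518) on day 21 and of Cd93 (0.43, adjusted p = 0.0903), Mmrn2 (0.26, adjusted p = 0.0718) and Gpihbp1 (0.38, adjusted p = 0.231) on day 28 ended.

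Secreted proteins held the largest rises in skin on days 14, 21 and 28. Apln was at 0.945 to 3.29 CPM (median 1.95) in PBS skins and 4.4 to 12.2 (median 9.01) in bleomycin skins on day 14, and at 1.47 to 3.59 CPM (median 2.26) and 5.19 to 15.6 (median 11.1) on day 21. On days 7, 14, 21 and 28 every bleomycin skin was above every PBS skin. Apln changed by 0.90 ± 0.25 (adjusted p = 0.00224) on day 7, 2.20 ± 0.24 (adjusted p = 3.23e-12) on day 14, 2.07 ± 0.25 (adjusted p = 3.81e-10) on day 21, 1.80 ± 0.26 (adjusted p = 5.55e-08) on day 28 and 0.83 ± 0.24 (adjusted p = 0.0158) on day 42. Mmrn2 was at 17.8 to 22.6 CPM (median 19.3) and 30 to 37.6 (median 35.1) on day 14, without overlap. It changed by 0.75 ± 0.11 (adjusted p = 1.04e-07) on day 7, 0.81 ± 0.11 (adjusted p = 1.2e-09) on day 14 and 0.81 ± 0.11 (adjusted p = 2.57e-08) on day 21, and by 0.34 and 0.49 on the later days. Esm1, a low gene in skin, was at 0.0622 to 1.18 CPM (median 0.376) with PBS and 1.06 to 3.62 (median 2.48) with bleomycin on day 14, groups that overlapped, at 2.44 ± 0.37 (adjusted p = 3.17e-08). Egfl7 was at 17.1 to 25.6 CPM (median 20.4) and 27 to 46.6 (median 30) on day 28, without overlap, at 0.62 ± 0.12 (adjusted p = 6.27e-05). Vwf rose on day 42, at 0.78 ± 0.22 (adjusted p = 0.0167).

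Of the junction and adhesion genes, 4, 1, 6, 4 and 5 of 7 rose in skin on the 5 days, and 1 fell, Cldn5 on day 14. Cdh5 was at 17.9 to 31.9 CPM (median 22.6) with PBS and 21.3 to 54.5 (median 40.1) with bleomycin on day 42, with overlap. It changed by 0.82 ± 0.13 (adjusted p = 5.36e-07) on day 21, 0.71 ± 0.13 (adjusted p = 3.25e-05) on day 28 and 0.77 ± 0.13 (adjusted p = 9.86e-06) on day 42, and was not called on days 7 and 14. Pecam1 was at 49.3 to 102 CPM (median 64) and 70.8 to 133 (median 91) on day 42, at 0.45 ± 0.12 (adjusted p = 0.0101), and rose on every day but day 14. Icam2 was at 1.89 to 3.39 CPM (median 2.6) and 3.5 to 10.2 (median 4.41) on day 21, without overlap, at 0.99 ± 0.15 (adjusted p = 1.32e-07). On day 7 its groups did not overlap either, at 0.82 ± 0.15 (adjusted p = 5.64e-06). Cldn5 was at 10.3 to 14.8 CPM (median 13) and 4.57 to 9.53 (median 7.34) on day 14, with every bleomycin skin lower, at -0.85 ± 0.19 (adjusted p = 0.000117). Esam was at 11.6 to 18.8 CPM (median 12.5) and 15.6 to 30.8 (median 16.8) on day 21, at 0.47 ± 0.12 (adjusted p = 0.000684). Emcn was at 7.58 to 14.8 CPM (median 9.56) and 10.5 to 24 (median 15.1) on day 42, at 0.60 ± 0.14 (adjusted p = 0.00364). Ptprb was at 54.9 to 92.5 CPM (median 61.5) and 67.7 to 132 (median 90.7) on day 42, at 0.46 ± 0.12 (adjusted p = 0.00763).

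Of the 6 receptors for growth and guidance factors, 0, 0, 1, 1 and 2 rose in skin on the 5 days and 1, 2, 0, 0 and 0 fell. Over all genes tested, 25.5%, 31.5%, 20.2%, 12.7% and 5.28% rose and 20.7%, 28.1%, 21%, 11.6% and 4.96% fell. Tek was at 24.8 to 44.9 CPM (median 29.3) in PBS skins and 13.4 to 21.9 (median 16.8) in bleomycin skins on day 14, without overlap, at -0.85 ± 0.14 (adjusted p = 4.25e-07). It also fell on day 7, at -0.81 ± 0.15 (adjusted p = 7.47e-06), and was not called later. Kdr was at 35.6 to 58.4 CPM (median 43.9) and 31.4 to 42.6 (median 37) on day 14, at -0.25 ± 0.10 (adjusted p = 0.027). Tie1 was at 10.7 to 19.3 CPM (median 15.8) and 17.6 to 32 (median 21.5) on day 28, at 0.56 ± 0.12 (adjusted p = 0.000226), and rose on days 21 and 42 too. Robo4 was at 4.42 to 14.2 CPM (median 8.51) and 9.32 to 20.5 (median 15.1) on day 42, at 0.70 ± 0.16 (adjusted p = 0.00222). Flt1 and Eng were called on no day in skin, with changes of -0.29 to 0.29 and -0.17 to 0.27.

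Ramp2 held the clearest fall among the peptide and lipid receptors in skin. It was at 16.4 to 27.2 CPM (median 22.5) with PBS and 6.11 to 11.9 (median 8.1) with bleomycin on day 14, without overlap, at -1.41 ± 0.13 (adjusted p = 2.05e-15). It had fallen on day 7, at -0.51 ± 0.13 (adjusted p = 0.00125), and lay between -0.03 and 0.15 on the last 3 days, not called. Ednrb was at 35.2 to 170 CPM (median 59.9) and 16.8 to 39.9 (median 30.8) on day 21, with overlap, at -1.67 ± 0.36 (adjusted p = 0.000102). With the hair and muscle terms, that value was -1.09 (adjusted p = 0.0024). On the same day 8 of 8 hair keratin genes fell, and of 7 genes of melanocytes and Schwann cells, cells that can carry Ednrb, 4 fell and 1 rose. On day 14, when Ednrb also fell, from 38.8 to 60.8 CPM (median 45.6) with PBS to 15.8 to 36.2 (median 21.7) with bleomycin without overlap, 6 of these 7 genes rose, and their summed level was 70.3 to 131 CPM (median 87.2) with PBS and 187 to 355 CPM (median 243) with bleomycin, without overlap. The part of these cells in the change of Ednrb was not tested. Aplnr was at 5 to 9.48 CPM (median 7.33) and 8.28 to 16.8 (median 13.6) on day 7, at 0.84 ± 0.21 (adjusted p = 0.000812), and at 4.38 to 12.6 CPM (median 7.7) and 12.6 to 30.1 (median 17.4) on day 28, at 1.12 ± 0.22 (adjusted p = 5.94e-05). S1pr1 was at 15.1 to 45.9 CPM (median 23) and 34.1 to 52.1 (median 46.5) on day 21, at 0.79 ± 0.16 (adjusted p = 4.1e-05).

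Cd93 was at 43.8 to 92.3 CPM (median 51.6) in PBS skins and 94.5 to 124 (median 101) in bleomycin skins on day 14, without overlap, at 0.83 ± 0.17 (adjusted p = 2.4e-05), and reached 0.85 ± 0.17 (adjusted p = 0.000366) on day 42. Clec14a was at 4.88 to 8.46 CPM (median 6.65) and 8.6 to 17.4 (median 12.8) on day 28, without overlap, at 0.91 ± 0.18 (adjusted p = 4.71e-05). Both are surface receptors for Mmrn2, which rose on the same days. Gpihbp1 was at 3.01 to 7.43 CPM (median 5.93) and 2.22 to 4.61 (median 2.71) on day 14, where it fell, at -0.83 ± 0.20 (adjusted p = 0.000218), and it rose on day 28, at 0.57 ± 0.21 (adjusted p = 0.0358). Plvap rose on days 7 and 42, from 17.4 to 33.2 CPM (median 24.5) with PBS to 25.8 to 42.7 (median 30.8) with bleomycin on day 42, at 0.44 ± 0.13 (adjusted p = 0.0193). Nos3 fell on day 14, at -0.38 ± 0.16 (adjusted p = 0.0338). Car4, with a median of 1.02 CPM in PBS skins, was called on no day. Of the transcription factors, Erg was at 5.08 to 7.59 CPM (median 6.39) and 8.76 to 12 (median 10.2) on day 28, without overlap, at 0.69 ± 0.11 (adjusted p = 1.31e-06), and it reached 0.60 ± 0.11 (adjusted p = 4.79e-05) on day 42. Sox17 fell on day 14, at -0.63 ± 0.18 (adjusted p = 0.00151), without overlap, and Sox18 was called on no day.

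The difference between the tissues was tested as the skin effect of bleomycin minus the lung effect, in a fit over both tissues that shares its libraries with the comparisons above. The difference was above 0 and called for 7 genes on day 7 (8.62% of all genes tested), 15 on day 14 (15.6%), 19 on day 21 (13.5%), 20 on day 28 (10.6%) and 23 on day 42 (4.98%). A difference below 0 was called for 1 gene, Ramp2 on day 14 (16.7% of all genes), at -0.65 ± 0.19 (adjusted p = 0.00346), and for 0 genes on days 7 (7.98%), 21 (16.6%), 28 (15.4%) and 42 (7.13%). In either direction 16.6%, 32.3%, 30.1%, 26% and 12.1% of all genes differed. The medians over the 31 genes were 0.32, 0.41, 0.63, 0.81 and 0.76. On day 14 the largest differences were those of Esm1, at 3.63 ± 0.43 (adjusted p = 1.57e-12), and Apln, at 2.85 ± 0.31 (adjusted p = 3.73e-14). On day 42 Cdh5 differed by 0.98 ± 0.16 (adjusted p = 9.85e-07), Erg by 0.97 ± 0.17 (adjusted p = 5e-06), S1pr1 by 1.01 ± 0.19 (adjusted p = 1.84e-05) and Tek by 1.00 ± 0.20 (adjusted p = 6.74e-05). Ednrb fell in both tissues on days 14 and 21, and its difference was called on no day. Without the libraries that stood apart the differences above 0 and below 0 together numbered 9, 18, 16, 14 and 21. The calls that ended were those of Car4, Ramp2, Cldn5 and Aplnr on day 21, of Tek, Ptprb, Cd93, Plvap, Mmrn2 and Esm1 on day 28, and of Gpihbp1 and Emcn on day 42.

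**Figure D4:**
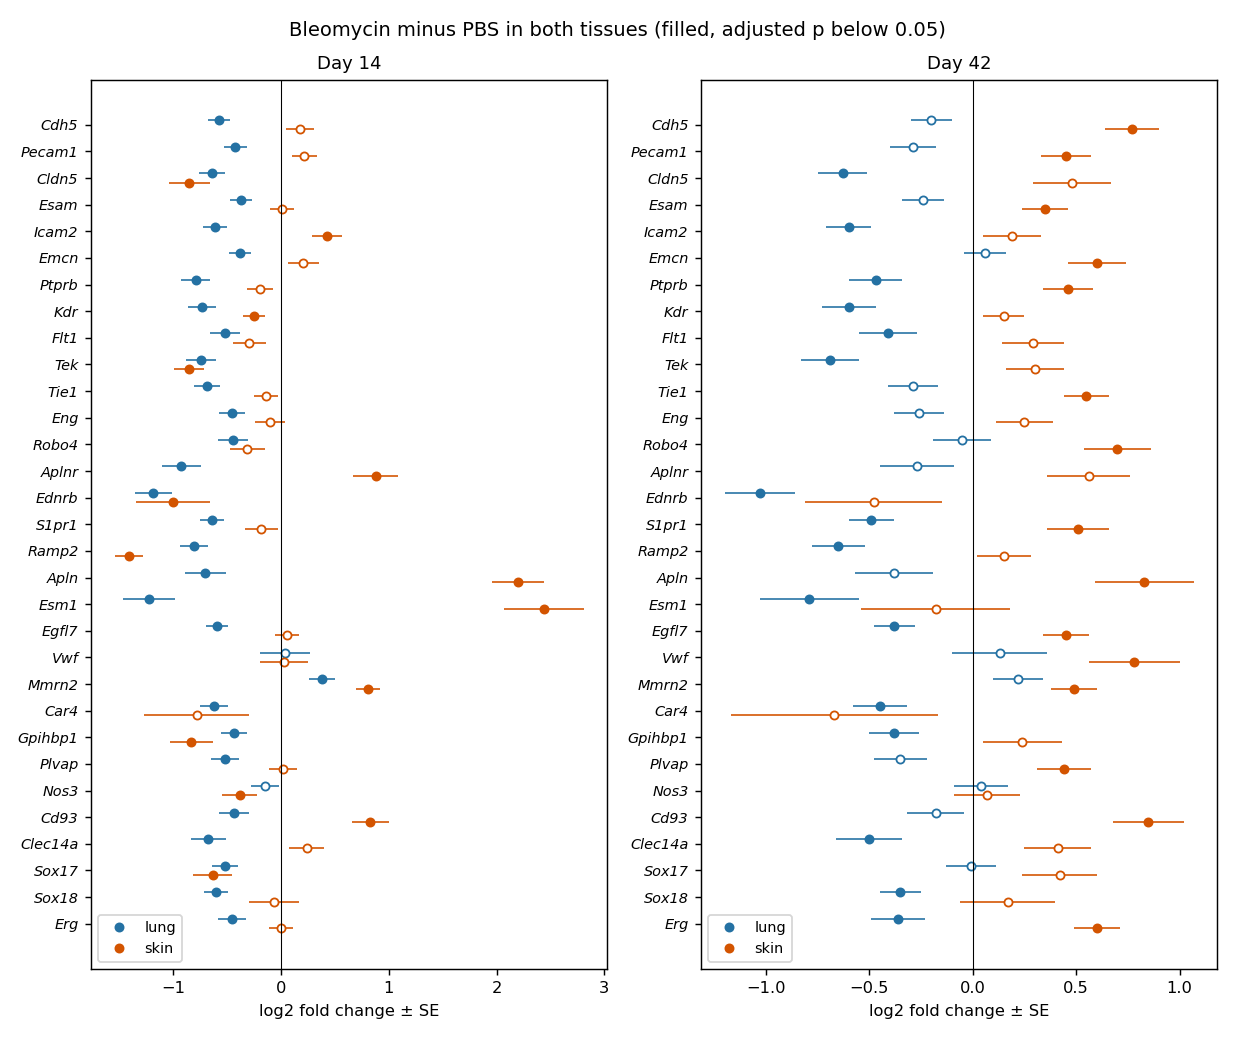
Log2 fold change of bleomycin against PBS (horizontal axis, with standard error) for each of the 31 genes in lung and skin on day 14 (left) and day 42 (right); filled points have an adjusted p below 0.05. On day 42 most skin points lie to the right of the lung points, and the difference was called above 0 for 23 genes.

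The change between the end of injections and day 42 was tested as the day 42 effect minus the day 14 effect. In the lung 3 of the 31 genes were higher relative to PBS on day 42 (10.7% of all genes) and 0 lower (4.67%, or 15.3% in either direction): Sox17, at 0.52 ± 0.16 (adjusted p = 0.0221), Emcn, at 0.44 ± 0.15 (adjusted p = 0.0304), and Cdh5, at 0.37 ± 0.14 (adjusted p = 0.0471). The median was 0.18, against 0.04 over all genes tested. Without the lung libraries that stood apart, 9 genes were higher, and the share of all genes in that fit is not given here. In the skin 16 genes were higher (23% of all genes) and 2 lower (27.9%, or 50.9% in either direction), with a median of 0.42 against -0.04 over all genes tested, and with hair and muscle terms the call of Plvap ended (0.39, adjusted p = 0.0622). Ramp2 rose back by 1.56 ± 0.18 (adjusted p = 7.52e-11), Cldn5 by 1.33 ± 0.27 (adjusted p = 4.35e-05) and Tek by 1.15 ± 0.20 (adjusted p = 2.74e-06). The 2 that went down were Esm1, at -2.62 ± 0.51 (adjusted p = 2.05e-05), and Apln, at -1.37 ± 0.34 (adjusted p = 0.000483).

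SB525334 had few called effects on the endothelial genes. These comparisons share their bleomycin vehicle group with the bleomycin comparisons of the same day, so values are given side by side only. In the lung on day 21, 0 of 31 genes were called by edgeR (0.403% of all genes in either direction). DESeq2 and limma called 0 as well, while 2 fell without the 18 libraries that stood apart. An unadjusted p below 0.05 in edgeR was found for 9 genes. The share of all genes at that level is not given here, so this count is not read as an effect. On day 28 in the lung 2 genes rose (2.64% of all genes) and 1 fell (5.73%, or 8.37% in either direction). Ramp2 was at 69.4 to 230 CPM (median 163) with vehicle and 136 to 302 (median 243) with SB525334, at 0.52 ± 0.14 (adjusted p = 0.0108), beside -0.38 ± 0.14 (adjusted p = 0.0292) for bleomycin against PBS. Sox18 was at 17.3 to 29.2 CPM (median 25) and 18.6 to 41.4 (median 32.5), at 0.38 ± 0.11 (adjusted p = 0.0229), and Nos3 at 16 to 32 CPM (median 22.8) and 10.3 to 25.2 (median 16.9), at -0.41 ± 0.13 (adjusted p = 0.04). The groups overlapped for all 3 genes. Of the 10 lung libraries rich in ribosomal protein transcripts, 6 were of the SB525334 group and 3 of the vehicle group of this day. Without the 18 libraries that stood apart the 3 values were 0.25, 0.27 and -0.10, none called, and 1 other gene rose. That fit kept replicates 7 and 8 with SB525334 and replicates 3, 6 and 7 with vehicle, too few for the lost calls to decide. Ednrb was at 66.9 to 99.5 CPM (median 76.4) with SB525334 on day 21 and 45.4 to 79.1 (median 55.1) with vehicle, at 0.36 ± 0.18 (adjusted p = 0.671).

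In the skin on day 21, 5 genes fell with SB525334 (6.02% of all genes) and 0 rose (5.81%, or 11.8% in either direction). Ramp2 was at 11 to 25.8 CPM (median 15.3) with vehicle and 8.41 to 11.9 (median 10.7) with SB525334, at -0.64 ± 0.13 (adjusted p = 0.000316), beside -0.03 ± 0.13 (adjusted p = 0.885) for bleomycin against PBS. Cldn5 was at 6.98 to 26.4 CPM (median 10.7) and 5.87 to 9.68 (median 7.96), at -0.64 ± 0.19 (adjusted p = 0.0204), and Kdr at 32.8 to 58 CPM (median 38.1) and 24.4 to 39 (median 32.4), at -0.33 ± 0.10 (adjusted p = 0.0209). Tek and Tie1 also fell, at -0.46 ± 0.14 (adjusted p = 0.0222) and -0.33 ± 0.11 (adjusted p = 0.0441). In these 2 groups 3 libraries held lung transcripts, and without all such libraries Ramp2 was the gene still called, while Cldn5, Kdr, Tek and Tie1 stood at -0.39, -0.27, -0.35 and -0.19. On day 28 in skin 4 genes rose (12.2% of all genes) and 1 fell (11.6%, or 23.9% in either direction). Ramp2 fell again, from 13.2 to 19.7 CPM (median 16.6) with vehicle to 11.7 to 13.9 (median 12.3), at -0.45 ± 0.13 (adjusted p = 0.00855). Plvap rose from 19.6 to 34.7 CPM (median 24.5) to 28.7 to 42.6 (median 38.3), at 0.51 ± 0.13 (adjusted p = 0.00321), Eng from 17.3 to 28.7 CPM (median 22.5) to 21.6 to 37 (median 32), at 0.48 ± 0.14 (adjusted p = 0.0101), and Flt1 from 27.5 to 40.9 CPM (median 31.4) to 38 to 54 (median 45.1), at 0.49 ± 0.15 (adjusted p = 0.0119). Car4, at 0.0622 to 0.597 CPM (median 0.248) and 0.0472 to 2.82 (median 0.786), rose at 1.80 ± 0.56 (adjusted p = 0.0131). With hair and muscle terms Car4, Eng and Flt1 were not called, at 1.31, 0.30 and 0.30. Apln, which rose on all 5 days in skin, stood at -0.06 ± 0.23 (adjusted p = 0.903) and -0.03 ± 0.24 (adjusted p = 0.944) under SB525334.

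**Figure D5:**
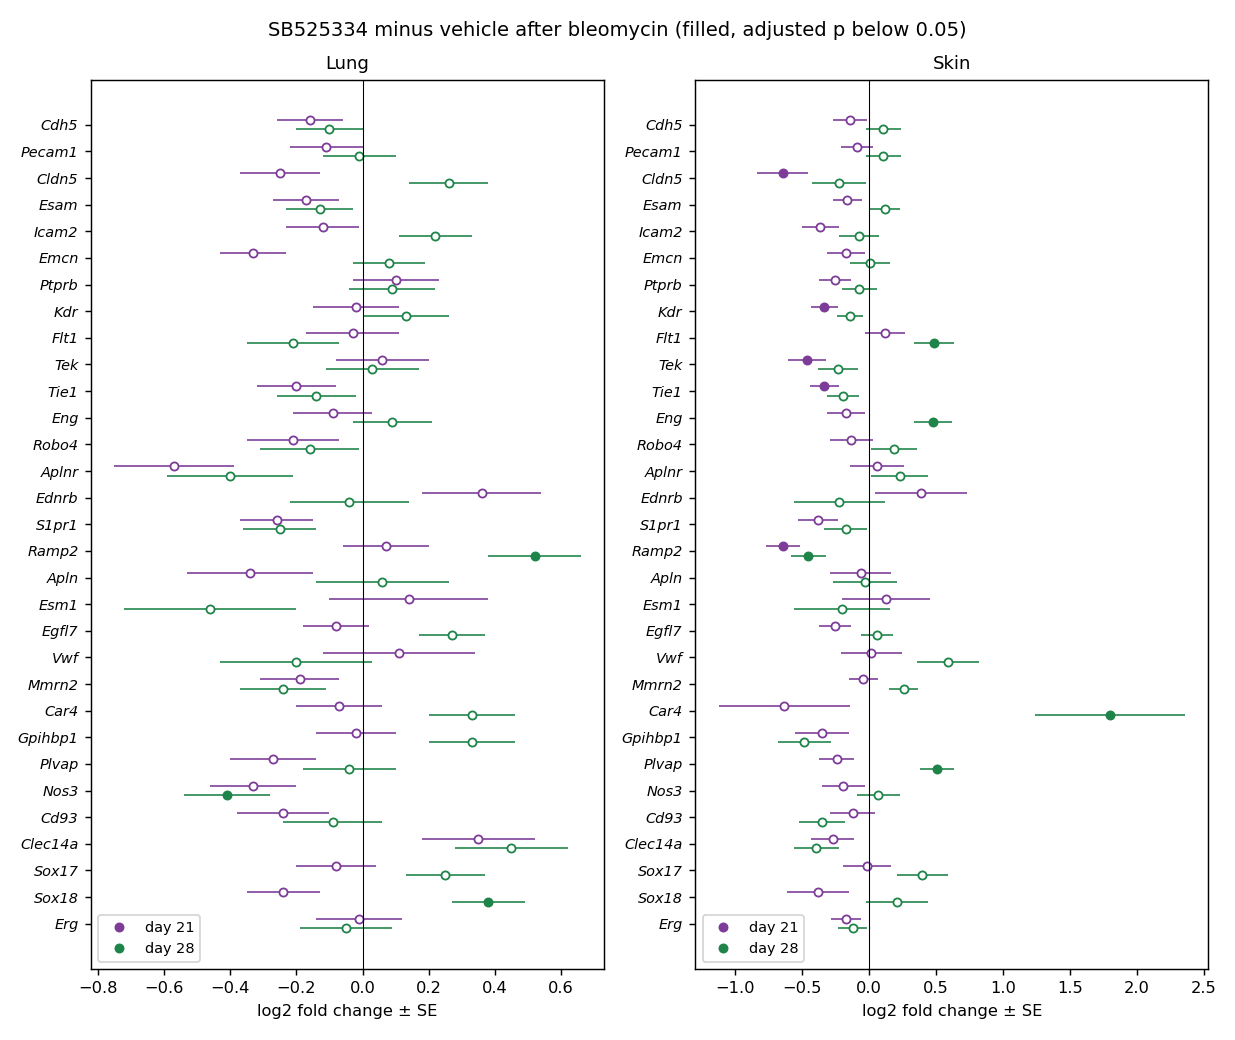
Log2 fold change of SB525334 against vehicle after bleomycin (horizontal axis, with standard error) for each of the 31 genes on days 21 and 28 in lung (left) and skin (right); filled points have an adjusted p below 0.05. In the lung on day 21 none was called, and in the skin Ramp2 fell on both days.

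Markers of capillary subtypes were counted from fixed lists, which share some of the 31 genes. Of 7 aerocyte markers, 1, 7, 6, 6 and 6 fell in the lung on the 5 days and 0 rose, with a median of -0.70 on day 14. Their summed level was 450 to 641 CPM (median 548) in PBS lungs and 271 to 359 CPM (median 302) in bleomycin lungs on day 14, without overlap, and 473 to 571 CPM (median 510) and 254 to 365 CPM (median 326) on day 42. Outside the 31 genes, Fibin fell on day 14, at -1.18 ± 0.17 (adjusted p = 1.2e-08), and so did Tbx2, a transcription factor, at -0.46 ± 0.09 (adjusted p = 1.53e-05). Of 6 general capillary markers, 3, 6, 4, 4 and 2 fell, among them Kit, the stem cell factor receptor, at -0.53 ± 0.10 (adjusted p = 1.74e-05) on day 14. Of 7 arterial markers 4 fell on day 14 and 3 on day 42, with Bmx, an arterial kinase gene, at -0.65 ± 0.11 (adjusted p = 3.14e-06) on day 21 and Gja5, a gap junction gene, at -0.58 ± 0.11 (adjusted p = 6.59e-05) on day 42. Of 6 venous markers 2 rose and 2 fell on day 14. The riser with the largest change was Ackr1, the chemokine-binding receptor of venules, at 3.85 ± 0.43 (adjusted p = 4.75e-12) on day 14 and still 2.23 ± 0.45 (adjusted p = 8.69e-05) on day 42. Nr2f2, the venous fate factor, fell on day 21, at -0.56 ± 0.09 (adjusted p = 2.08e-07). In skin Ackr1 fell on day 14, at -0.93 ± 0.24 (adjusted p = 0.000773), and Gja5 rose, at 1.56 ± 0.19 (adjusted p = 8.77e-11). Neither gene stands for its list. Selp, also on the venous list, rose in skin on that day, as given below. The summed level of the 6 venous markers in skin on day 14 was 115 to 201 CPM (median 148) with PBS. With bleomycin it was 79.1 to 162 CPM (median 134), with overlap. The summed level of the 7 arterial markers in skin on day 14 was lower with bleomycin, without overlap. It was 69.9 to 79.2 CPM (median 75.2) with PBS and 41.5 to 52.6 CPM (median 46.3) with bleomycin.

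Genes that act with the 31 were counted likewise. Of 12 ligands and partners in VEGF and angiopoietin signaling, 2 rose and 8 fell in the lung on day 14. Pgf, a ligand of Flt1, rose, at 1.19 ± 0.17 (adjusted p = 2.08e-08), and Angpt2, the angiopoietin made by endothelium, fell, at -0.82 ± 0.13 (adjusted p = 2.98e-07). Angptl4, an inhibitor of lipoprotein lipase, rose by 1.51 ± 0.21 (adjusted p = 1.55e-08) on day 21. In skin 2 rose and 8 fell on day 14 and 6 rose and 0 fell on day 21, with Vegfc, the lymphatic growth factor, at -1.17 ± 0.16 (adjusted p = 4.98e-09) on day 14, and Angpt2 at 0.97 ± 0.17 (adjusted p = 6.13e-07). Of 9 Notch genes 8 fell in the lung on day 14, with Dll4, the tip-cell ligand, at -0.62 ± 0.11 (adjusted p = 4.73e-06), and on day 7 Jag1 was at -0.63 ± 0.09 (adjusted p = 1.67e-07) and Notch1 at -0.71 ± 0.12 (adjusted p = 3.47e-06). In skin 3 fell on day 14 and 5 on day 21, with Notch1 at -0.77 ± 0.15 (adjusted p = 2.92e-05). Of 10 tested genes of BMP and endoglin signaling 6 fell and 1 rose in the lung on day 14, with the receptor Bmpr2 at -0.66 ± 0.11 (adjusted p = 9.46e-07) and the inhibitory Smad6 and Smad7 at -0.91 ± 0.18 (adjusted p = 1.59e-05) and -0.62 ± 0.12 (adjusted p = 1.13e-05). In skin 7 of 9 fell on day 21, with Smad6 at -1.75 ± 0.37 (adjusted p = 0.000104) and Id3, a target of BMP signaling, at -0.95 ± 0.16 (adjusted p = 2.98e-06).

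Among 9 tested partners of the peptide receptors and Gpihbp1, 2 rose and 3 fell in the lung on day 14. Edn3, a ligand of Ednrb, fell, at -1.19 ± 0.13 (adjusted p = 3.91e-12), and so did Ece1, which processes endothelins, at -0.65 ± 0.10 (adjusted p = 5.57e-08). Lpl, the lipase that Gpihbp1 carries, rose by 0.99 ± 0.14 (adjusted p = 2.2e-08) on day 21. In skin Lpl fell on day 14, at -1.14 ± 0.17 (adjusted p = 1.62e-08), when Gpihbp1 fell too. Of 8 genes of endothelial activation 6 rose and 1 fell in each tissue on day 14, with medians of 0.47 in lung and 0.88 in skin. Selp, the selectin that starts leukocyte rolling, rose by 1.24 ± 0.25 (adjusted p = 2.48e-05) in lung and 1.73 ± 0.26 (adjusted p = 1.94e-08) in skin, and Icam1 by 0.49 ± 0.09 (adjusted p = 8.61e-06) and 0.90 ± 0.15 (adjusted p = 2.69e-07). Vcam1, an adhesion molecule, rose by 2.36 ± 0.21 (adjusted p = 2.51e-14) in skin on day 21. These genes are not made by endothelium alone. Of 12 tested endothelial transcription factors other than the 3 above, 9 fell and 0 rose in the lung on day 14, with a median of -0.82. Ets2 was at -0.76 ± 0.09 (adjusted p = 1.4e-10), Foxf1, which lung capillaries need, at -0.97 ± 0.12 (adjusted p = 8.12e-10), and Klf4 at -0.94 ± 0.13 (adjusted p = 6.05e-09). In skin 2 rose and 5 fell on day 14, with Sox7 at 1.15 ± 0.14 (adjusted p = 1.11e-10), and Fli1, an ETS factor, rose by 0.81 ± 0.16 (adjusted p = 4.3e-05) on day 21.

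Markers of other cells moved along with the endothelial genes, and their part in the results was not tested. In the lung on day 14, 7 of 8 macrophage markers rose and 1 fell, and their summed level was 571 to 875 CPM (median 625) with PBS and 1201 to 1688 CPM (median 1542) with bleomycin, without overlap. Of 6 pan-leukocyte markers 5 rose, from 639 to 1013 CPM (median 832) to 991 to 1272 CPM (median 1142), and of 7 markers of alveolar type 1 cells 4 fell and 1 rose, from 3756 to 5179 CPM (median 4841) to 3180 to 4069 CPM (median 3591). Of 9 mural cell markers, for the pericytes that wrap capillaries, 1 rose and 1 fell. Of 7 lymphatic markers, 1 rose and 2 fell on day 14, and 5 rose and 1 fell on day 28. In skin 6 of 6 pan-leukocyte markers rose on each of days 7, 14 and 21, from 533 to 987 CPM (median 624) to 824 to 1363 CPM (median 1254) on day 14. On that day 6 of 6 fibroblast markers fell, from 6595 to 10491 CPM (median 6973) to 1367 to 3096 CPM (median 2659), 6 of 7 lymphatic markers fell and 1 rose, from 325 to 428 CPM (median 348) to 201 to 256 CPM (median 218), and 6 of 6 adipocyte markers fell. On day 42, 4 of 7 lymphatic markers rose in skin, 0 of 6 pan-leukocyte markers and 2 of 8 macrophage markers. Of 6 markers of alveolar type 2 cells, which belong to the lung, 5 rose in skin on day 7 and 3 on day 21, the 2 days with libraries that held lung transcripts.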

How the data were processed

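Total RNA of lung and skin was sequenced after removal of ribosomal RNA with a stranded kit, per the labels' protocols. The authors deposited expected counts per gene, made with RSEM on GRCm38 per the submitters' processing notes. They also deposited log2 CPM values, made with edgeR per the same notes and corrected for plate per the table's title. The aligner and the versions are not given in the sources used here. Expected counts were rounded to whole numbers (83.7% were whole already), and symbols came from GENCODE M21.

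The main test was edgeR's quasi-likelihood F test (edgeR 4.0.16 in R 4.3.3), with low genes removed by filterByExpr over groups and libraries scaled by TMM. Each tissue had its own fit of 12 groups (93 libraries) that included plate, and the contrast of skin with lung came from a joint fit that included the plates of each tissue. Calls required a p below 0.05 after Benjamini-Hochberg adjustment over every gene tested. Standard errors were approximated by dividing the size of the log2 fold change by the root of F. Levels, in CPM, were scaled by TMM inside a tissue without correction for plate, and a range is the lowest and highest library. Per-library medians used log2(CPM + 0.5). DESeq2 1.42.0 and limma 3.58.1 gave alternatives. Tested on counts simulated for day 7, the lung fit found 84 of 100 genes with a 2-fold change, 67 of 100 with a 1.5-fold change and 7 unchanged genes, out of 15647. The skin fit found 81, 59 and 6, out of 15825. No other genes were changed in these simulations, and no plate effect was put in. In the data 31.7% of all genes in lung and 46.2% in skin were called on day 7. The simulated counts thus do not give the power of the tests above.

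The genes, lists and rules were chosen with earlier results of these data known. Values per library are given for Cdh5, Pecam1, up to 3 called genes with the smallest p per direction in each comparison within a tissue, and genes whose direction differed between called comparisons. Pathway and marker genes named are up to 3 called per list and tissue, with the smallest p in any bleomycin comparison, and a few others (Ackr1 on day 42 and in skin, Gja5 and Selp, and Angpt2 in skin) were named after their values were seen. The values of 1 gene of the lists are not reported here. The labels do not name the mouse behind a library, so p-values measure the spread between these libraries, which may be in part technical. Libraries of both tissues were treated as independent.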

Additional observations from a re-analysis of the deposited data

Results flagged for a closer look

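Libraries far from their group were looked for in the median of the 31 genes relative to the PBS mean of the day, on the log2 scale. Of 24 groups, 4 held such a library, where chance gives about 1 group in 20. In bleomycin lungs of day 42, replicate 1 stood at -0.86, and this library also held liver transcripts. In PBS lungs of day 14, replicate 6, which held hair transcripts, stood at -0.25. In bleomycin skins of day 21, replicate 3 stood at 1.07, and this library held 308 CPM of the lung gene Sftpc. In bleomycin skins of day 28, replicate 1 stood at 0.73.

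Effects that differed by a test of the difference itself were found in 7 contrasts. The bleomycin effect on day 42 differed from that on day 14 for 3 of the 31 genes in lung (15.3% of all genes tested) and for 18 in skin (50.9%). The lung count was not above the share over all genes, and the skin count was near it. The skin effect differed from the lung effect for 7 genes on day 7 (16.6% of all genes tested) and 16 on day 14 (32.3%). It differed for 19 on day 21 (30.1%), 20 on day 28 (26%) and 23 on day 42 (12.1%).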

How the results depend on the processing

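Counts of called genes and medians of the 31 genes stayed within 1.5 times the reported count, or within the spread between libraries, in 295 cases and moved further in 15. All 15 were counts. The limit for medians was wide. It was the standard deviation between libraries of the bleomycin or SB525334 group, or for contrasts of effects the largest of any group. For bleomycin lungs of day 28 it was 0.34, so the shift from -0.52 to -0.31 without the libraries that stood apart lay within it. With a fit of only the 2 groups compared, called genes in the lung numbered 22 on day 7, 1 on day 28, 6 for SB525334 on day 21 and 0 for SB525334 on day 28, and in the skin 10 on day 21 and 8 on day 42. This fit estimates spread from fewer libraries. Without the lung libraries of unusual composition, a choice made after seeing the data, the lung numbered 14 on day 28, 2 for SB525334 on day 21, 1 for SB525334 on day 28 and 9 for day 42 minus day 14. Without a plate term, SB525334 in lung on day 28 gave 1. For SB525334 in skin on day 21, limma on the deposited log2 values gave 1, the fit without libraries with lung transcripts 1 and the fit with hair and muscle terms 8, and on day 28 the hair and muscle terms gave 3 (both fits added after seeing the data). For single genes, direction and side of the threshold held in 1900 cases, the call was lost in 154 and the sign turned in 2. Car4 in skin minus lung on day 21 went to -0.26 (adjusted p = 0.784) with the replicate block over tissues in limma voom, and Vwf in lung on day 42, not called, went to -0.06 (adjusted p = 0.873) without the libraries of low Vwf. The cause of these changes was not tested. For low genes such as Esm1 and Car4 in skin, counting error limits the precision.

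The replicate numbers did not pair the libraries: in no comparison was every same-numbered pair correlated above 0.1, and no more than 2 libraries of a comparison correlated best with their own number. With the replicate block the counts of called genes in lung were 10, 29, 16, 24 and 16 on the 5 days, 0 and 2 for SB525334 and 2 for day 42 minus day 14. In skin they were 11, 14, 16, 14 and 15, then 4, 5 and 18. None moved by more than 1.5 times. The block over tissues gave 6, 16, 19, 22 and 22 for skin minus lung.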

Other observations

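Vwf had 4 libraries with a level far below the others of their group, noticed after its values were seen. In bleomycin lungs of day 14, replicate 6 was at 83.4 CPM, while the next lowest of the 8 libraries was at 403 and the highest at 876. In bleomycin skins of day 14, replicate 6 was at 10.2 CPM, the next lowest at 58.6 and the highest at 91.3. In PBS lungs of day 42, replicate 2 was at 88.7 CPM and the next lowest at 646. In PBS skins of day 42, replicate 1 was at 9.75 CPM and the next lowest at 23.9. The labels tie no lung library to a skin library. Without these 4 libraries Vwf stood at 0.21 (adjusted p = 0.268) in lung and 0.17 (adjusted p = 0.446) in skin on day 14 of bleomycin, and at 0.64 (adjusted p = 0.0161) in skin on day 42, by edgeR's quasi-likelihood test.

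In PBS mice the level of Cdh5 also differed between plates in skin, at 15.3 to 25.4 CPM (median 19.3) in 20 libraries of plate 1 and 18.5 to 35.6 CPM (median 30.5) in 19 of plate 2. The ratio of the plate medians was 1.58 in skin and 1.38 in lung for Cdh5, the highest of the 31 genes in each tissue, and was lowest for Sox18, at 0.642 in skin and 0.739 in lung.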
